A study of Mus musculus with 12 samples.

Results

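Gene expression after 21 days in osteogenic medium (D28) was compared with expression after 1 day in the same medium (D8), using 3 libraries per time point, 6 of the 12 libraries of the study. The cells were described by the labels as murine mesenchymal progenitors of the C57/BL6 strain, isolated by collagenase from the heads and condyles of the femurs and tibiae of 5 or 6 day old pups. No allele or transgene is named for any group. Cells were kept in adhesion for 24 h, pelleted, cultured for 7 days in chondrogenic medium (D7), and then moved to osteogenic medium, in which they were harvested on day 8, day 10 (D10) or day 28. Both groups compared here had therefore been through the same 7 days of chondrogenic culture and the same change of medium, and they differ in the time spent in osteogenic medium and in total culture time, which cannot be told apart. The replicates are numbered in the labels, which do not say whether they come from separate litters or cultures, so the p-values measure the spread between these samples, which may be technical. A pellet is a mixed tissue, and in bulk RNA fewer cells of a type and less RNA per cell cannot be told apart.

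In endochondral ossification, chondrocytes lay down a matrix of type II collagen and aggrecan, stop dividing, enlarge and switch on type X collagen, and the matrix is then mineralised and replaced by bone. Osteoblasts secrete type I collagen and the mineral-binding proteins osteopontin, bone sialoprotein and osteocalcin, and those that become embedded are osteocytes. Mesenchymal progenitors of the skeleton can also form adipocytes, and Wnt, BMP, hedgehog and IGF signals and glucocorticoids act on the choice between these fates.

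Expression is given as the deposited log2 value (log2 of the equalized read count plus 1), and the values of single libraries are listed in the order of replicates 1, 2 and 3. Of 28244 genes listed, 17674 had a value of at least 1 in at least 3 of the 12 libraries and were tested, and 10570 were not. A gene was called different at an adjusted p under 0.05 in limma and a difference of at least 1 on the log2 scale. Between 11055 and 11624 genes per library were at 0 at D8 and between 11068 and 11534 at D28. Relative depth, read from the steps between low values, was 0.962 to 1.22 at D8 and 1.20 to 1.31 at D28, and 3 reads stood at no more than 2.17 at D8 and 1.54 at D28. Such levels cover counting error only. A gene at or under a library's own 3-read level in all 3 libraries of a group is given with a lower bound of its fold difference, computed with every lower value raised to 2.87, the highest 3-read level of any library. At the other end, the 95 highest ranks hold the same values in every library, from 14.74 to 20.92, so differences among the most abundant genes are changes of rank.

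Between D8 and D28, 3487 genes passed the threshold, 19.7% of those tested. Higher at D28 were 1773 genes (10.0%) and lower were 1714 (9.70%). A difference of at least 2 on the log2 scale was found for 877 higher and 678 lower genes, and of at least 4 for 190 higher and 63 lower genes, so the largest changes were more often rises. The median difference over all genes tested was −0.08, and the median standard deviation between replicates was 0.19 at D8 and 0.20 at D28. In the same fit, 3057 genes (17.3%) differed between D28 and D7, and 1244 (7.04%) between D8 and D7.

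The largest rise was that of Cyp24a1 (chromosome 2, 170482708 to 170497145 in GRCm38, minus strand), the 24-hydroxylase that inactivates vitamin D. It was at 0, 0 and 1.87 at D8 and at 14.09, 13.61 and 12.89 at D28. All 3 D8 libraries were at or under the level of 3 reads, which puts the D28 level above theirs by a factor of 1611 or more (adjusted p = 8.2e-10). Cfd (chromosome 10, 79890853 to 79892655, plus strand), the complement factor D or adipsin that fat cells secrete, stood at 3.91, 2.52 and 3.20 at D8. At D28 it was at 13.58, 13.94 and 14.20, a rise of 10.69 ± 0.34 (SE) on the log2 scale (adjusted p = 1.1e-11).

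Of the 10 rises that followed, all chosen among genes without overlap between the time points, Itih3, a heavy chain of the inter-alpha-trypsin inhibitor that binds hyaluronan, was at 2.03, 1.12 and 1.87 at D8 and at 11.13, 11.48 and 10.65 at D28, at least 296-fold higher. Pla2g2a, listed in GENCODE M21 as a polymorphic pseudogene, went from 3.10, 1.77 and 3.55 to 12.03, 11.49 and 11.25. Sult1a1, a phenol sulfotransferase, rose by 8.05 ± 0.34 (SE), and Hgd, homogentisate dioxygenase of tyrosine breakdown, was at least 78.9-fold higher. Next came the interferon-responsive Ifi27l2a (7.23), the β3-adrenergic receptor Adrb3 of fat cells (7.13), the adipokines Adipoq (7.05) and Retn (6.87), the anion transporter Slc26a7 (6.77) and Otos (6.70), a secreted protein first known from the inner ear. Adipocyte products thus made up Cfd, Adrb3, Adipoq and Retn, 4 of the 12 genes. Genes outside the upper 75% of means over the 12 libraries were left out of these lists. Among them, Ppy, the precursor of pancreatic polypeptide, Apoc3, an apolipoprotein, and Bhmt, betaine-homocysteine methyltransferase, were chosen after their values were seen: they were at 0 in all D7, D8 and D10 libraries. At D28 Ppy was at 10.69, 10.40 and 10.25 (at least 190-fold higher than at D8), Apoc3 at 8.65, 8.90 and 8.82 (at least 60.4-fold) and Bhmt at 9.03, 8.81 and 8.11 (at least 54.7-fold).

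Among the falls, R3hdml (chromosome 2, 163492318 to 163502612, plus strand), a putative serine protease inhibitor, went from 10.34, 10.98 and 10.57 at D8 to 2.68, 0 and 2.03 at D28, a fall of 9.06 on the log2 scale (adjusted p = 1.5e-09). The ligand Wnt7b (chromosome 15, 85535437 to 85582473, minus strand), which drives osteoblast formation in bone, was at 8.27, 8.27 and 7.69 at D8. At D28 it was at 0, 0 and 1.50, so the level at D28 was at least 36.8-fold lower. Eln (chromosome 5, 134702593 to 134747323, minus strand), which encodes tropoelastin, was at 14.97, 15.31 and 15.43 at D8 and at 8.58, 8.37 and 8.63 at D28. Its fall of 6.71 ± 0.19 (SE) had the smallest standard error of the 12 (adjusted p = 4.1e-12). The other falls were those of Acsbg1, an acyl-CoA synthetase (6.96), the water channel Aqp5 (6.92), Cntnap3, a contactin-associated protein (6.60), the cysteine protease Ctsw (5.97), the otogelin gene Otog (at least 13.0-fold lower), the arylsulfatase Arsi (5.67), Myh3, the embryonic myosin heavy chain (at least 8.22-fold lower), Adamtsl2, a fibrillin-binding protein (5.48), and the collagen receptor subunit Itga2 (5.46).

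**Figure D1:**
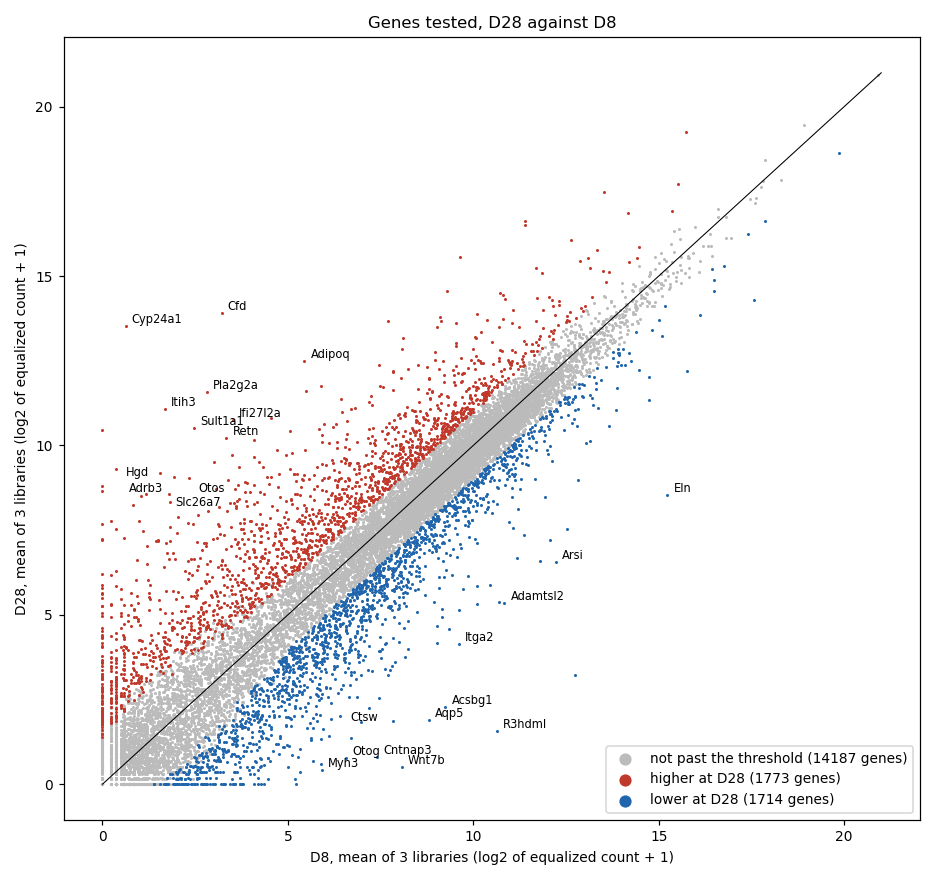
Mean log2 value of the 3 D8 libraries (horizontal) and the 3 D28 libraries (vertical) for the 17674 genes tested, with 1773 genes higher at D28 in red, 1714 lower in blue and the others in grey. The labelled genes are the 12 largest rises and 12 largest falls of the naming rule, of which Cyp24a1 and R3hdml lie farthest from the line of equality on their sides.

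Genes of fat cells formed the group with the largest median rise of all lists examined. Of 26 adipocyte and lipid storage genes tested, 21 were higher at D28, 0 were lower, and the median difference was 3.24, beside −0.08 over all genes. Pparg, the nuclear receptor that directs adipocyte differentiation, was at 7.08, 6.37 and 7.12 at D8 and at 10.08, 9.91 and 10.36 at D28 (difference 3.26 ± 0.25 SE, adjusted p = 6.8e-08). Its partner Cebpa rose by 2.07. Lipid droplet coat and storage genes rose with them, Plin1 by 3.22, Plin4 by 3.40, Cidea by 3.64 and Cidec by 6.26. Adipoq, the adiponectin gene (chromosome 16, 23146536 to 23158028, plus strand), was already above the 3-read level at D8, at 5.97, 5.33 and 5.03, and reached 12.30, 12.45 and 12.74 at D28. Lep, the leptin gene, was at 0, 1.77 and 0 at D8 and at 6.91, 7.10 and 7.82 at D28, at least 21.1-fold higher. Fatty acid uptake and release genes were also higher: Fabp4 by 3.80, Cd36 by 4.37, Lpl by 3.48, Pnpla2 by 2.76 and Lipe by 2.41. Plin2 (0.53), Acaca (0.52), Dgat2 (0.87, and 1.01 without D28 replicate 1, which passed), Angptl4 (−0.02) and G0s2 (−0.01) did not pass the threshold. At D7, before the change of medium, mean Adipoq was 7.06 and mean Cfd 4.71, higher than at D8, and at D10 they were 4.02 and 2.36.

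Cholesterol synthesis genes were higher as well, with smaller differences. Of 24 tested, 15 were higher and 0 lower, with a median of 1.09. The differences ran from 1.04 (Cyp51, 0.97 without D8 replicate 3) to 1.85 (Pmvk, phosphomevalonate kinase), and Hmgcs1, the synthase at the head of the pathway, was at 9.85, 10.01 and 10.10 at D8 and at 11.11, 11.34 and 11.33 at D28.

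Vitamin D response genes included the largest rise of the data, Cyp24a1. Of 14 tested, 5 were higher and 0 lower, with a median of 0.73. Vdr, the vitamin D receptor, was at 7.88, 7.77 and 7.98 at D8 and at 10.27, 10.30 and 9.96 at D28 (difference 2.30). The calcium-binding S100g was at or under 3 reads at D8 and at 6.34, 7.32 and 6.79 at D28, at least 15.4-fold higher. Tnfsf11, which encodes the osteoclast-inducing ligand RANKL, rose by 2.53 and Bglap by 3.06, while Spp1 differed by 0.55 and the activating hydroxylase Cyp27b1 by −1.36, neither past the threshold. Without D28 replicate 3, Cyp27b1 did pass, at −2.19.

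Glucocorticoid response genes were tested as a list of 24, of which 16 were higher and 0 lower, with a median of 1.22. Glul, glutamine synthetase, went from 9.18, 8.85 and 9.39 to 13.51, 13.68 and 13.84, and Zbtb16, a zinc finger factor, rose by 2.20. The classical targets Fkbp5 (1.16) and Tsc22d3 (1.27) rose by less. Both enzymes that interconvert active and inactive glucocorticoid were higher, Hsd11b1 by 2.33 and Hsd11b2 by 1.53. Per1 (0.10), Dusp1 (−0.34), Sgk1 (−0.28) and the receptor gene Nr3c1 (0.37) did not pass. Several members lay higher at D7 than at D8, so that Fkbp5 averaged 13.02 at D7, 12.16 at D8 and 13.32 at D28, and Tsc22d3 13.73, 12.28 and 13.55.

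**Figure D2:**
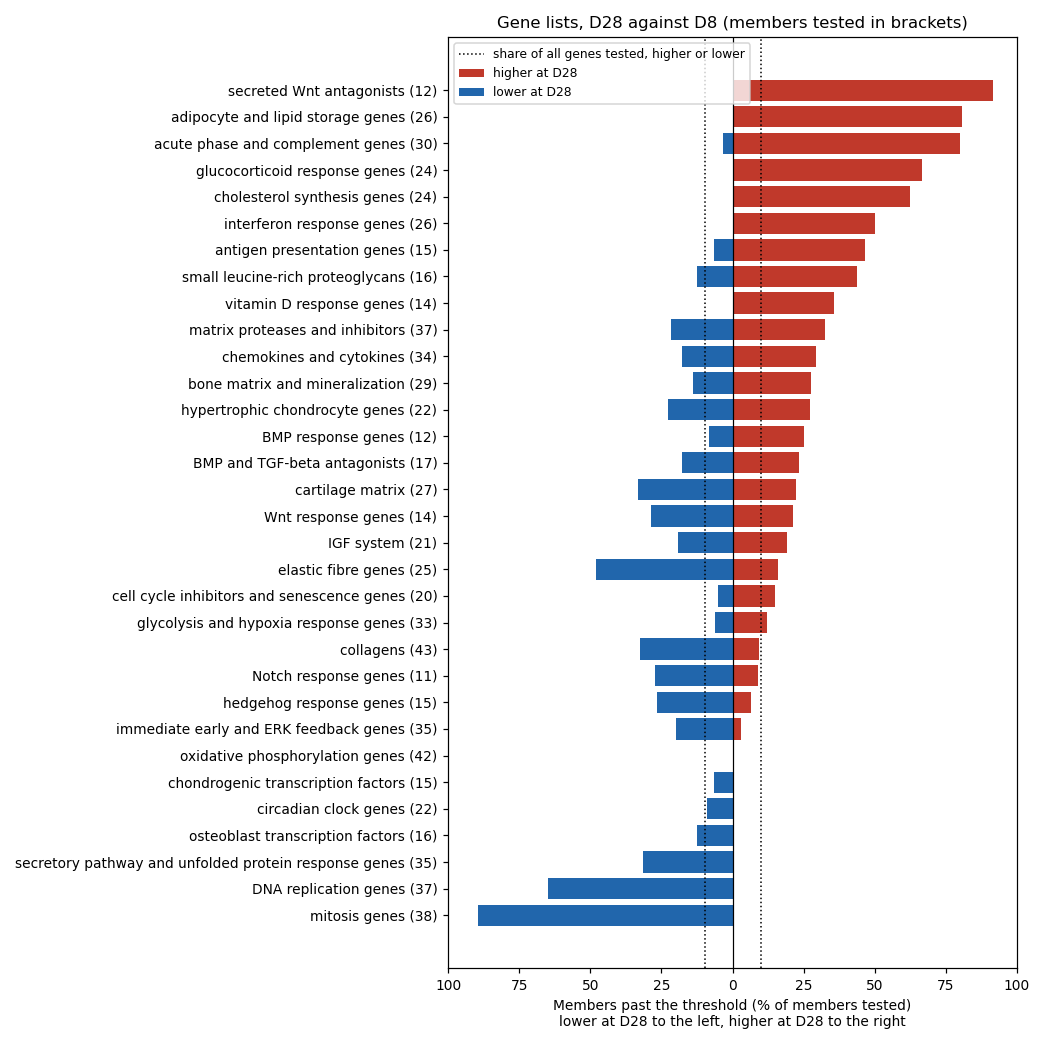
Share of the tested members of each gene list, lists of cell type markers left out, that were higher (red, right) or lower (blue, left) at D28 than at D8, in percent, with dotted lines at the shares over all genes tested (10.0% higher, 9.70% lower). Secreted Wnt antagonists, adipocyte genes and acute phase and complement genes have the longest bars to the right, mitosis and DNA replication genes the longest to the left among the lists plotted, and none of the oxidative phosphorylation genes passed.

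Acute phase and complement genes rose almost throughout. Of 30 tested, 24 were higher and 1, C1qtnf3, was lower, with a median of 2.79. C3, the central complement protein, was at 9.83, 9.21 and 9.85 at D8 and at 15.38, 15.73 and 15.54 at D28 (difference 5.92 ± 0.21 SE, adjusted p = 3.0e-11). Hp, haptoglobin, went from 11.73, 11.08 and 11.34 to 16.52 in each D28 library, a rank position. Orm1, an α1-acid glycoprotein with a near-identical neighbour, Orm2, between which reads may be split, rose by 6.51. Further rises were those of C4b (3.25), C2 (4.00), the regulator Serping1 (2.68), Steap4 (4.01), Apod (4.47), Pla2g5 (4.70) and Saa3 (2.25). Saa1 (−1.40), Saa2 (−0.65), C1s1 (0.66), Cfi and Cp (0.87) did not pass, although Saa1 did without D28 replicate 1 (−1.99) and Cp without D28 replicate 2 (1.02). Many of these genes are also expressed by fat cells, and several stand in a further list. These are Cfd (adipocyte genes), Pla2g5 (hypertrophic genes), C1qa, C1qb and C1qc (macrophage markers), and Lcn2, Mt1 and Mt2 (glucocorticoid response genes).

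Interferon response genes were higher in 13 of 26 cases and lower in 0, with a median of 1.43. Isg15, a ubiquitin-like protein, was at 5.54, 5.16 and 3.79 at D8 and at 6.18, 6.34 and 7.92 at D28 (difference 1.98). Without D28 replicate 3 the difference was 1.43 (adjusted p = 0.053), and 1 gene of the list was lower. Oas1a lost the call without D28 replicate 3 (1.76, adjusted p = 0.098) or D8 replicate 3 (1.86, adjusted p = 0.085). Ifit1 rose by 2.24, Gbp3 by 3.45 and Irf7 by 1.80, and for Isg15, Ifit1, Ifit3, Gbp3, Oas1a and Irf7 the highest library was D28 replicate 3. Antigen presentation genes were higher in 7 of 15 cases and lower in 1, with a median of 0.68. The rises were all in the class I pathway: B2m went from 12.46, 12.36 and 12.15 to 14.21, 14.26 and 14.28, H2-D1 rose by 1.97, H2-K1 by 1.33 and the regulator Nlrc5 by 2.19. The class II genes H2-Ab1 (−0.78) and H2-Eb1 (−1.17, and −1.74 without D28 replicate 1, which passed) did not pass, and H2-DMa fell by 2.23. H2-K1 and H2-D1 are close paralogs, between which reads may be split.

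Chemokine and cytokine genes went in both directions. Of 34 tested, 10 were higher and 6 lower, with a median of 0.27. Ccl9 was at 6.67, 6.89 and 6.56 at D8 and at 11.67, 10.89 and 10.65 at D28. Cxcl12, the chemokine that retains blood progenitors in the marrow, rose by 3.35, the interleukin-1 antagonist Il1rn by 3.17 and Il18 by 2.13. The lower genes were led by the interleukin-6 family members Il11 and Lif. Il11 was at 8.14, 8.55 and 7.78 at D8 and at 3.70, 3.63 and 3.91 at D28, and Lif went from 8.72, 9.35 and 8.98 to 4.38, 4.62 and 5.02. Il33 fell by 4.31 and Cxcl14 by 2.05. Il6 itself differed by −1.74 and did not pass, but did without D8 replicate 2 (−2.45) or D28 replicate 2 (−2.25).

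Macrophage markers were higher in 8 of 19 cases and lower in 1, with a median of 1.61, and D28 replicate 2 stood above the other D28 libraries. Their summed level was 10.85, 10.77 and 10.51 at D8 and 10.89, 12.97 and 10.91 at D28. Cd163, a scavenger receptor of tissue macrophages, was at 0, 1.77 and 1.87 at D8 and at 3.45, 8.70 and 5.93 at D28, at least 8.88-fold higher. That bound was 3.52-fold without D28 replicate 2 and 21.7-fold without D28 replicate 1. C1qa was at 2.92, 3.55 and 4.49 and then at 6.38, 9.23 and 5.87, a rise of 3.51 that was 2.47 without D28 replicate 2, and C1qb and C1qc rose by 3.59 and 3.74 (2.74 and 3.00 without it). Mrc1 rose by 3.27, from 4.51, 4.16 and 4.22 at D8 to 7.17, 8.79 and 6.74 at D28. Adgre1 rose by 2.00 and Fcer1g by 2.37. Csf1r, the receptor that macrophages need to survive, was at 4.72, 7.92 and 5.13 at D28, and its difference of 1.67 (adjusted p = 0.042) became 0.67 (adjusted p = 0.24) without D28 replicate 2. Without any single D8 library it was 1.49 to 1.80 (adjusted p = 0.067 to 0.12). Adgre1 lost the call without D8 replicate 1 (1.71) or D28 replicate 2 (1.19). Without D28 replicate 2, 6 of the 19 markers were higher, and so were 24 of the 30 acute phase and complement genes. C1qa, C1qb and C1qc are counted in both lists. Leaving out each of the 6 libraries gave 6 to 12 higher markers. Laptm5 fell by 1.44, with D28 replicate 2 at its D8 level, and lost the call without D28 replicate 1 (−0.98) or 3 (−1.19). Ptprc (0.62), Cd68 (−0.18) and Lyz2 (0.90, but 1.37 and past the threshold without D28 replicate 1) did not pass.

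Spread between replicates was in general as small at D28 as at D8, with exceptions. Among genes with a mean of at least 6, a standard deviation over 1 was found for 0 of 11268 genes at D8 and for 31 of 11261 at D28. The library farthest from the median was D28 replicate 2 for 15 of the 31, replicate 1 for 14 and replicate 3 for 2. Among the genes with the largest standard deviations were Cd163, C1qa, Stab1, C1qb and Lyz2, which are genes of macrophages. Stab1, a scavenger receptor, was at 7.65, 9.85 and 6.94 at D28, and Lyz2, lysozyme, at 9.26, 11.80 and 9.49. Replicate 1 was the highest for the hypertrophic genes Ihh and Col10a1. The part of these differences between libraries in the results was not tested beyond leaving each library out.

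**Figure D3:**
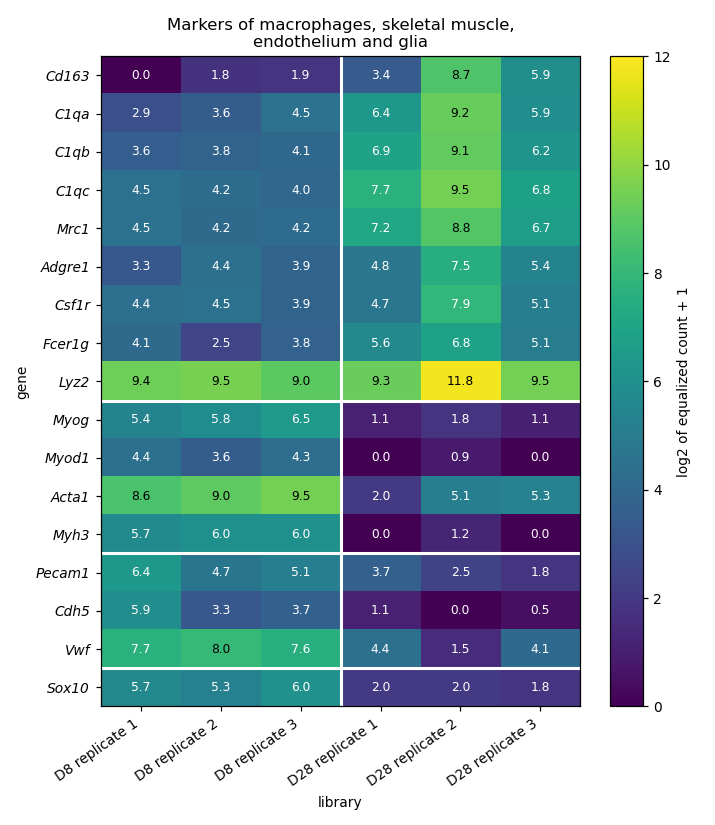
Log2 values of selected marker genes of macrophages (top), skeletal muscle, endothelium and glia (bottom) in each D8 and D28 library. Macrophage markers are highest in D28 replicate 2, and the muscle, endothelial and glial genes plotted, all chosen from those that fell, are higher in each D8 library than in each D28 library, unlike the summed levels of the endothelial and the neuron and glia lists.

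Bone matrix and mineralization genes were mixed. Of 29 tested, 8 were higher and 4 lower, with a median of 0.30. The osteocalcin gene Bglap was at 6.49, 6.22 and 5.07 at D8 and at 8.96, 8.98 and 9.02 at D28 (difference 3.06 ± 0.45 SE, adjusted p = 5.6e-05). Its neighbours Bglap2 and Bglap3 rose by 2.62 and 3.47, and since the copies are nearly identical, reads may be split among them. Ibsp, bone sialoprotein, rose by 2.13, from 12.03, 11.88 and 11.73 to 14.20, 14.17 and 13.65. Omd, osteomodulin, went from 10.39, 11.34 and 10.64 to 14.57, 14.49 and 14.25, the largest rise of the list at 3.65. Mepe was at or under 3 reads at D8 and at 3.70, 4.81 and 3.37 at D28, at least 2.12-fold higher, and Phex, which restrains phosphate loss, rose by 1.08. That call was lost without D8 replicate 2 (0.88), D8 replicate 3 (1.12, adjusted p = 0.075), D28 replicate 2 (0.74) or D28 replicate 3 (0.90). Genes of the bulk of bone matrix did not pass: Col1a1 differed by −0.32, Col1a2 by −0.46, Spp1 by 0.55 and Sparc by 0.52. Nor did the mineralization enzymes Alpl (0.40), Phospho1 (−0.53) and Enpp1 (0.16). The lower members were the phosphate transporter Slc20a1 (fell by 2.25), Tnfrsf11b, the RANKL decoy osteoprotegerin (fell by 1.96), the kinase Fam20c (fell by 1.49) and the pyrophosphate exporter gene Ank (fell by 1.06, but by less than 1 without D8 replicate 1, −0.98, or D28 replicate 3, −0.99, or after median-of-ratios scaling, −0.95). Tnfsf11 was at 8.83, 8.80 and 8.90 at D8 and at 11.44, 11.55 and 11.12 at D28, so the ligand rose where its decoy fell.

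Osteoblast transcription factors showed 0 rises and 2 falls among 16 tested, near the 9.70% of all genes tested that were lower, with a median of −0.29. The falls were those of the Wnt effector Tcf7 (2.02) and Runx3 (1.52). Runx2 differed by −0.45, Sp7, the osterix gene, by −0.37, Dlx5 by 0.69 and Msx2 by 0.91. Msx2 passed without D8 replicate 2 (1.09) or D28 replicate 3 (1.10) and after median-of-ratios scaling (1.02). Osteocyte markers were higher in 4 of 8 tested cases and lower in 1, with a median of 0.62. Fbln7 rose by 2.43, Ptprz1 by 3.04 and Mepe and Phex as above. Reln, the only fall, was at least 2.38-fold lower but lost the call with values raised to 2.87 (adjusted p = 0.080). Dmp1 differed by 0.15, with libraries at 7.33, 7.33 and 7.21 at D8 and on both sides of these at D28, at 6.15, 8.11 and 8.06. Osteoclast markers gave 1 rise and 3 falls among 11 tested, with a median of −0.13. Acp5, the tartrate-resistant phosphatase, rose by 1.20, the integrin Itgb3 fell by 3.51 and Nfatc1 by 2.13, while Ctsk (−0.50) and Mmp9 (0.05) did not pass.

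Hypertrophic chondrocyte genes divided, with 6 higher and 5 lower among 22 tested and a median of 0.14. Col10a1, type X collagen and the defining matrix gene of hypertrophy, was at 17.27, 18.02 and 17.46 at D8 and at 15.64, 13.31 and 13.89 at D28, a fall of 3.30 ± 0.44 (SE) with an adjusted p of 1.9e-05. Those of its values above 14.74 are rank positions. Mmp13, the collagenase of late hypertrophy, rose instead, from 13.02, 12.71 and 12.89 to 15.51, 15.52 and 15.34. Panx3, a channel protein, rose by 3.13, the forkhead factor Foxa2 by 2.33 and Pla2g5 by 4.70. Ihh, the ligand of prehypertrophic cells, was at 5.95, 5.29 and 6.47 and then at 9.27, 7.68 and 6.71. Its difference of 1.98 passed at an adjusted p of 0.025, and without D28 replicate 1 it was 1.29 (adjusted p = 0.15). Without D8 replicate 1, D8 replicate 2 or D28 replicate 2 it was 1.67 to 2.09 (adjusted p = 0.051 to 0.097). Runx2, Alpl, Vegfa (−0.54), Mef2c (0.67) and the receptor Pth1r (0.07) did not pass.

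Cartilage matrix genes were likewise divided, 6 higher and 9 lower of 27, with a median of −0.02. Col2a1 held the highest value of the table, 20.92, in every D8 and D28 library, so no difference can be read for it. Acan, the aggrecan gene, differed by −0.02 and Comp by 0.13. Lower were Cilp2, which went from 11.05, 11.15 and 11.35 to 6.37, 6.93 and 6.72, Cilp (fell by 3.45), the proteoglycan Cspg4 (fell by 2.71), the leucine-rich Chad (fell by 1.32), and the minor fibril collagens Col9a1 (fell by 1.60), Col11a1 (fell by 1.18) and Col11a2 (fell by 1.23). Prg4, the joint lubricant lubricin, was at 15.64, 15.87 and 15.75 at D8 and at 12.90, 11.73 and 11.96 at D28. Higher were Ucma, a protein of juvenile cartilage that was at 12.67, 13.36 and 13.22 and then at 15.52, 15.62 and 15.47, and Vit (2.77), Prelp (2.35), Cnmd (1.68), Snorc (1.30) and Matn4 (1.04). Chad without D28 replicate 3 (−0.94), Col11a1 without D8 replicate 3 (−0.97) and Matn4 without D8 replicate 2 (0.89) were under the fold threshold. Chondrogenic transcription factors gave 0 rises and 1 fall, Nfatc1, among 15 tested, near the 9.70% of all genes tested that were lower, with a median of −0.05. Sox9 differed by 0.14, Sox5 by −0.15, Sox6 by −0.38 and Trps1 by −0.17.

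Collagens as a family were more often lower, 14 of 43, than higher, 4 of 43, with a median of −0.46. Besides the cartilage collagens, Col5a1 went from 16.52, 16.52 and 16.43 to 14.45, 14.55 and 14.70 and Col3a1 from 17.03, 16.43 and 16.82 to 14.77, 15.79 and 15.31, values among which ranks count. Col7a1, of the anchoring fibrils, fell by 2.95 and Col8a2 by 2.24. The rises were Col6a5 (4.39), Col6a6 (3.39), Col22a1 (2.37) and Col4a4 (1.04), all from D8 means under 6. Col4a4 lost the call without D8 replicate 1 (0.81), D28 replicate 1 (0.80) or D28 replicate 2 (0.98).

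Elastic fibre genes fell in 12 of 25 cases and rose in 4, with a median of −0.69. Eln had the largest fall of the list. Beside it fell the crosslinking enzymes Loxl4 (3.40), Loxl2 (2.24) and Loxl3 (1.70), the latent TGF-β binding proteins Ltbp4 (2.81), Ltbp1 (1.77), Ltbp2 (1.20) and Ltbp3 (1.18), and Fbn2, the fibrillin of embryonic tissue (1.81). Fbn1 differed by −0.24 and did not pass. Efemp1, which went from 6.28, 6.48 and 6.64 to 11.27, 10.75 and 10.93, Fbln5 (1.50) and Mfap2 (1.55) rose. Small leucine-rich proteoglycans, which coat collagen fibrils, gave 7 rises and 2 falls among 16, with a median of 0.61. Ecm2 was at 6.48, 6.72 and 6.56 at D8 and at 10.86, 10.68 and 10.60 at D28, and Aspn rose by 2.40, Prelp by 2.35, Ogn by 2.18, Dcn by 1.46 and Lum by 1.12. Epyc and Chad, which are chondrocyte products, fell by 1.61 and 1.32 (Chad by less than 1 without D28 replicate 3, −0.94, and Lum at 0.97 without D8 replicate 3), and Bgn (0.38) and Fmod (0.84) did not pass.

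Matrix proteases and their inhibitors gave 12 rises and 8 falls among 37, with a median of −0.05. Timp4 stood out among the inhibitors, at 7.48, 7.54 and 8.07 at D8 and at 13.79, 13.58 and 13.69 at D28, while Timp1 fell by 1.62 and Timp3 by 2.25. Adamts9 rose by 2.79, Adamts1 by 2.24 and Mmp3 by 1.52. Adamts18 fell by 3.86, Adamts3 by 3.55 and Adamts6 by 3.41. The aggrecanases Adamts4 (−0.14) and Adamts5 (0.67) did not pass. Tendon and joint markers gave 1 rise, Tnmd (2.13), and 5 falls among 12 tested, with a median of −0.41, among them the tendon factor Scx (fell by 2.57) and the joint ligand Gdf5 (fell by 2.60).

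Secreted Wnt antagonists rose in 11 of 12 tested cases and fell in 0, with a median of 2.61. Frzb, which binds Wnt ligands outside the cell, was at 11.28, 11.04 and 11.89 at D8 and at 16.64, 16.69 and 16.58 at D28 (difference 5.23 ± 0.16 SE, adjusted p = 1.1e-11). The D28 values of Frzb are rank positions. Wif1 went from 9.97, 9.99 and 10.04 to 13.15, 12.89 and 12.49. Dkk1, a blocker of the Wnt co-receptor, was at 0 in all D8 libraries and at 5.68, 4.53 and 3.37 at D28, at least 3.15-fold higher. Sostdc1 rose by 5.31, Dkk2 by 3.37, Draxin by 2.83, Dkk3 by 2.40, and Sfrp2 and Notum by 1.81 each. Sfrp1 (1.14) and Sfrp5 (1.18) were closer to the threshold. Sfrp1 was at 0.90 without D28 replicate 2, Sfrp5 was at 0.67 without D8 replicate 1 and 0.93 without D28 replicate 1, and Sfrp4 (−0.14) did not pass. Of 14 Wnt response genes 3 were higher and 4 lower, with a median of −0.57. Lgr6, an R-spondin receptor, fell from 12.40, 12.82 and 12.35 to 8.41, 7.14 and 7.02, Ccn4 fell by 2.64, Nkd2 by 2.04 and Tcf7 by 2.02, whereas Axin2 (0.30), Lef1 (−0.35) and Lgr5 (0.07) did not pass. Dkk1 and Notum, which belong to both lists, and Apcdd1 (1.26) were the 3 that rose.

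BMP and TGF-β antagonists gave 4 rises and 3 falls among 17, with a median of 0.13. Fst, follistatin, went from 9.71, 9.29 and 9.58 to 12.63, 13.43 and 12.97, Bmper rose by 2.19 and Grem1 by 1.83. Nog, noggin, differed by 0.99, and passed without D8 replicate 3 (1.23) or D28 replicate 3 (1.15) and after median-of-ratios scaling (1.09). Of 12 BMP response genes, Id4 (2.63), Id3 (1.30) and Atoh8 (1.12) rose and Smad7 fell by 1.06, with a median of 0.68, and Id1 (0.14) did not pass. Smad7 was between −0.99 and −0.95 without D8 replicate 2, D28 replicate 2 or D28 replicate 3 or after median-of-ratios scaling, and Atoh8 was at 0.96 without D8 replicate 3. Hedgehog response genes showed 1 rise and 4 falls among 15, with a median of −0.25. Gli1 was at 8.65, 8.92 and 9.17 at D8 and at 7.77, 7.12 and 7.07 at D28, and Ptch1, the receptor that is itself a target, fell by 1.68, while the list's only rise was that of the ligand Ihh, which lost the call without 4 of the 6 libraries in turn (1.29 to 2.09, adjusted p = 0.051 to 0.15). Notch response genes gave 1 rise and 3 falls among 11, with a median of −0.61. Hes1 fell by 1.47 and Notch3 rose by 1.26. Heyl, at 5.69, 3.71 and 3.20 and then 0, 1.22 and 0, was at least 2.50-fold lower, or 1.49-fold without D8 replicate 1. With values raised to 2.87 its call was lost (adjusted p = 0.11), and with that setting or a mean of at least 3 the list had 1 fall.

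IGF system genes gave 4 rises and 4 falls among 21, with a median of −0.02. Igfbp3, a binding protein of the growth factors, was at 9.64, 8.75 and 8.53 at D8 and at 12.53, 12.92 and 12.84 at D28, Igfals rose by 3.00 and Igfbp5 by 1.57. Igf2, the fetal growth factor, went from 11.65, 11.93 and 12.25 to 10.32, 10.24 and 10.39, while Igf1 differed by −0.02. Immediate early and ERK feedback genes gave 1 rise, Dusp6 (1.05), and 7 falls among 35, with a median of −0.38. Over all genes tested, 10.0% were higher and 9.70% lower. Etv4 fell by 2.26, Dusp4 by 1.99, Egr2 by 1.48 and Junb by 1.05, while Fos (−0.69) and Egr1 (−0.22) did not pass. Dusp6 without D28 replicate 1 (0.96) or 3 (0.92) and Junb without D8 replicate 2 (−0.96) or D28 replicate 2 (−0.94), or after median-of-ratios scaling (−0.94), were under the fold threshold.

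**Figure D4:**
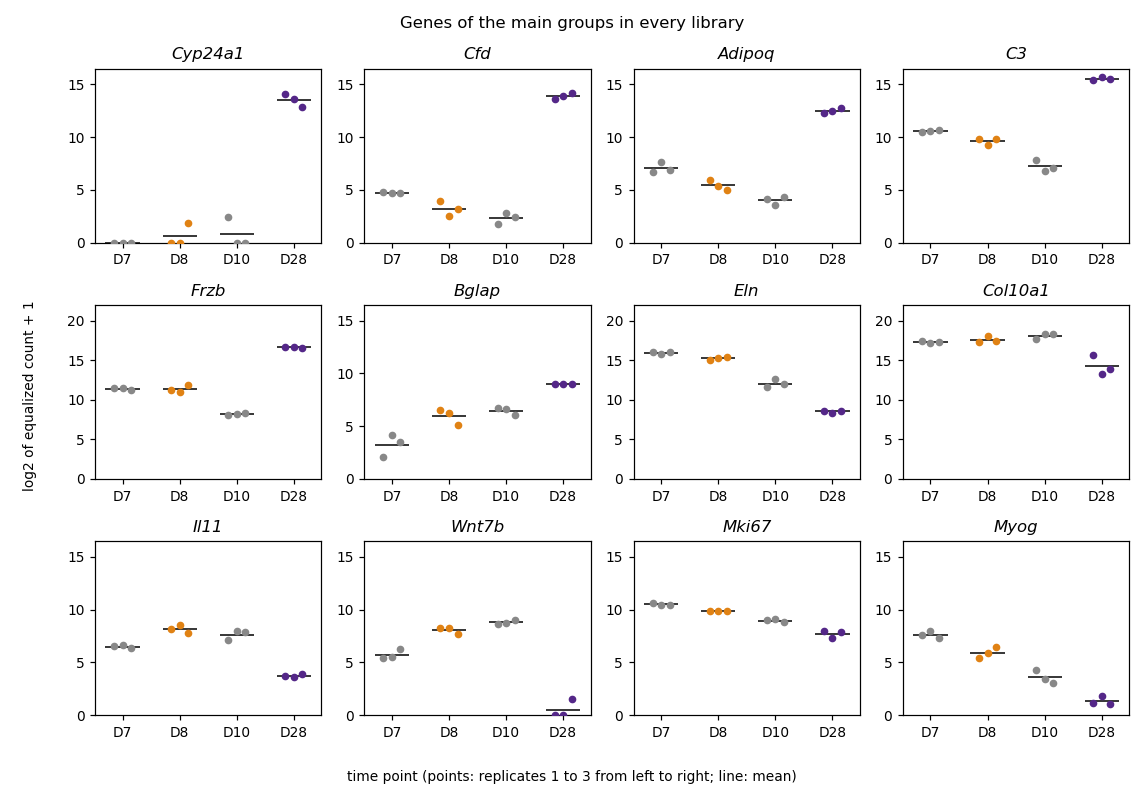
Log2 values of 12 genes in each library at D7, D8 (orange), D10 and D28 (purple), with the mean of each time point as a line. The values of the 3 D28 libraries lie above those of D8 for Cyp24a1, Cfd, Adipoq, C3, Frzb and Bglap and below them for Eln, Col10a1, Il11, Wnt7b, Mki67 and Myog.

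Genes of cell division were lower or did not pass. Of 38 mitosis genes, 34 were lower and 0 higher, with a median of −1.81. Mki67, the Ki-67 proliferation antigen, was at 9.84, 9.90 and 9.88 at D8 and at 7.99, 7.30 and 7.87 at D28 (adjusted p = 3.2e-08). Mybl2 had the largest fall, 3.10, followed by the checkpoint kinase Bub1 (2.83) and the kinetochore protein Ndc80 (2.75). The genes that did not pass were Mad2l1 (−0.71), Cdk1 (−0.44), Bub3 (−0.30) and Pttg1 (0.71). Of 37 DNA replication genes, 24 were lower and 0 higher, with a median of −1.19. Cdc6, which loads the replicative helicase, was at 7.38, 7.62 and 7.36 and then at 3.75, 4.00 and 4.00. Orc1, of the origin recognition complex, fell by 2.88 and Mcm5, a helicase subunit, by 2.70, while Pcna (−0.64) and Rrm2 (0.56) did not pass. Cell cycle inhibitors and senescence genes gave 3 rises and 1 fall among 20, near the 19.7% of all genes tested, with a median of 0.14. Cdkn2a, whose transcripts for p16 and p19 are not separated in gene values, was at 7.04, 6.24 and 5.62 at D8 and at 10.34, 10.91 and 10.69 at D28. Its neighbour Cdkn2b rose by 2.19 and Cdkn2c by 1.42, Lmnb1, the nuclear lamin B1 gene, fell by 1.53, and Cdkn1a differed by −0.33.

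Promoters of such genes are known for the CHR element (TTTGAA) together with CCAAT boxes in mitosis genes and for E2F sites in replication genes, and 4 windows of fallen genes are shown. Capitals mark TTTGAA and CCAAT in the windows of the mitosis genes Top2a and Ube2c and the E2F letters alone in those of the replication genes Cdc6 and Orc1, on either strand. Each window holds the 250 bases before the annotated start site, 5′ to 3′ along the gene's strand, from RefSeq on GRCm38.p6. The first, Top2a, is the window chr11:99024190-99024439 (minus strand), Ube2c is chr2:164769679-164769928 (plus), Cdc6 is chr11:98907901-98908150 (plus) and Orc1 is chr4:108579204-108579453 (plus).
Top2a: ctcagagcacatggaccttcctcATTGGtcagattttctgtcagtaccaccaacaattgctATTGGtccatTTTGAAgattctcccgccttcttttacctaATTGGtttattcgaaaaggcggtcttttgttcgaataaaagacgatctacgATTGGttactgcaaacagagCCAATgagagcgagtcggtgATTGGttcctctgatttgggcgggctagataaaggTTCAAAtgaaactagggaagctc
Ube2c: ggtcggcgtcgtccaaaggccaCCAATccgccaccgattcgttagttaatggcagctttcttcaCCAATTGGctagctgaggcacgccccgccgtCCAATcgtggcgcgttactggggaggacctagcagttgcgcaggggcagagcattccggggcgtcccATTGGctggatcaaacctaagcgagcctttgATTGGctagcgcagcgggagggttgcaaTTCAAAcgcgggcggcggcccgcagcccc
Cdc6: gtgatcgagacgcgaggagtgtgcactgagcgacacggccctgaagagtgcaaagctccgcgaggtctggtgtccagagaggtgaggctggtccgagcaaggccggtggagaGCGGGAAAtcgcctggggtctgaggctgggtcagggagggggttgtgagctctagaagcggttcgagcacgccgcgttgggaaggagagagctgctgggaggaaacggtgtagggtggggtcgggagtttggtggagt
Orc1: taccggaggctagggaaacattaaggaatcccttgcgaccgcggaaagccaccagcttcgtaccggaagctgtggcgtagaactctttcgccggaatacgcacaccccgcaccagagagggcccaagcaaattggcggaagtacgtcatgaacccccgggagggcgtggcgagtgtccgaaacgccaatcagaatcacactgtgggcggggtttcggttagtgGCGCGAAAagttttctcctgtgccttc
Top2a, the mitotic DNA topoisomerase, held 8 matches, 2 of them to TTTGAA and 6 to CCAAT, and fell from 10.28, 10.41 and 10.28 to 8.43, 7.68 and 7.94. Ube2c, of the anaphase-promoting complex pathway, held 7 matches and fell by 2.23. The CHR letters nearest to the start site stood 23 bases before it in Top2a and 29 bases in Ube2c. Cdc6 and Orc1 each held 1 match to the E2F letters, 138 and 27 bases before the start site.

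Windows were found for 33 of the 38 mitosis genes, 36 in all. Both TTTGAA and CCAAT were present in 12 of them (33.3%), against 5.55% of 32851 windows of all genes. CCAAT with or without TTTGAA was in 27 of the 36 windows, against 33.8% of all windows, and TTTGAA in 13 (36.1% against 16.0%). An E2F match, defined as TTTCCCGC, TTTGGCGC or TTTCGCGC on either strand, was in 9 of 35 windows of 29 replication genes (25.7%), against 1.53% of all windows. For circadian clock genes, CACGTG was in 6 of 27 windows (22.2% against 6.02%) and TTATGTAA in 1 (3.70% against 0.819%). For vitamin D response genes, the half-site letters AGGTCA or GGTTCA were in 5 of 18 windows (27.8% against 21.5%). The clock and vitamin D lists had windows for 18 of 23 and 16 of 18 genes. TTTGAA and CCAAT do not overlap in letters, and the 3 E2F forms differ in the middle bases. A match is a description of these letters in these windows and shows no binding.

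Genes of protein secretion and the unfolded protein response were lower or did not pass. Of 35 tested, 11 were lower and 0 higher, with a median of −0.70. Hyou1, a chaperone of the endoplasmic reticulum, was at 13.74, 13.88 and 13.98 at D8 and at 11.58, 11.68 and 11.83 at D28 (adjusted p = 6.1e-10). Hspa5, the BiP chaperone, fell by 1.24, Creld2 by 1.39, Manf by 1.32 and the stress-induced Trib3 by 1.38, and Atf4 (−0.36) and Xbp1 (−0.35) did not pass. Of 42 oxidative phosphorylation genes, 0 passed in either direction, with differences from −0.68 to 0.62 and a median of −0.01. Glycolysis and hypoxia response genes gave 4 rises and 2 falls among 33, near the 19.7% of all genes tested that passed, with a median of 0.06: Bnip3 and Aldoc rose by 1.44 each, and Car12, a carbonic anhydrase, went from 11.16, 11.40 and 11.58 to 7.37, 7.79 and 6.86. Circadian clock genes gave 0 rises and 2 falls among 22, near the 9.70% of all genes tested that were lower, with a median of −0.19. There was 1 rise after median-of-ratios scaling or without any single D28 library and there were 2 without D8 replicate 3. The falls were those of the output genes Dbp (fell by 1.54) and Ciart (fell by 1.21), while Arntl differed by 0.05 and Per2 by −0.30. The hour of harvest is not given in the sources used here.

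Skeletal muscle markers were present at D8 and fell by D28. Of 28 tested, 23 were lower and 0 higher, with a median of −2.26. Myog, a myogenic transcription factor, was at 5.37, 5.85 and 6.50 at D8 and at 1.12, 1.84 and 1.06 at D28, and Myod1 was at least 2.32-fold lower. Acta1, skeletal actin, went from 8.58, 9.02 and 9.48 to 2.03, 5.12 and 5.33. The summed level of the list was 11.22, 11.54 and 11.86 at D8 and 10.87, 9.98 and 10.31 at D28. Means at D7 were higher than at D8, 7.60 for Myog and 10.39 for Acta1.

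Endothelial markers were lower in 5 of 14 cases and higher in 0, with a median of −1.12, and 2 were lower when a mean of at least 3 was required. Their summed level, which the most abundant members set, was not lower, at 11.68, 11.50 and 11.47 at D8 and at 11.80, 11.99 and 11.64 at D28. Vwf, von Willebrand factor, went from 7.68, 8.02 and 7.57 to 4.43, 1.54 and 4.11, Pecam1 from 6.38, 4.67 and 5.12 to 3.70, 2.48 and 1.81, and Cdh5 was at least 2.66-fold lower, or 1.52-fold without D8 replicate 1. Its call was lost with values raised to 2.87 (adjusted p = 0.075). Kdr (−1.18) and Flt1 (0.56) did not pass, and Kdr did without D28 replicate 1 (−2.14). Among 13 neuron and glia markers 3 were higher and 4 lower, with a median of −0.61, while their summed level was higher, at 12.21, 12.43 and 12.34 and then at 13.41, 13.21 and 12.98. The falls included the Schwann cell gene Sox10, at 5.67, 5.29 and 6.05 and then at 2.03, 2.03 and 1.81. With a mean of at least 3, a pseudocount of 8 or values raised to 2.87, 1 marker was higher. Epithelial markers gave 1 rise and 3 falls among 13, with a median of −0.34, and Cdh1 fell by 2.99. With those settings or without D8 replicate 1 there was no epithelial rise. Only 2 of the 12 erythroid and lymphoid markers were tested, Alas2 (−0.25) and Cd79a, and neither passed.

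Smooth muscle and myofibroblast markers went both ways, 5 higher and 4 lower of 17, with a median of −0.16. Rgs5, a pericyte marker, was at 6.34, 5.68 and 5.51 at D8 and at 9.84, 10.75 and 10.87 at D28, and the smooth muscle myosin Myh11 rose by 4.26 and Mylk by 3.16. Acta2 (0.62) and Tagln (−0.16) did not pass. Markers of bone marrow stroma, the reticular cells that nurse blood progenitors, were higher in 9 of 13 cases and lower in 1, with a median of 2.17. Kitl, stem cell factor, went from 7.12, 7.14 and 7.55 to 11.01, 11.34 and 11.24, Angpt1 rose by 3.95, Vcam1 by 2.79, and the transcription factors Ebf1 by 2.17 and Ebf3 by 1.43. Lepr, the leptin receptor that marks these cells in the adult, fell by 1.31, and Adipoq and Lpl of this list also stand among the adipocyte genes.

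Because D8 lies 1 day after the change of medium, some of its differences from D28 concern genes that had moved between D7 and D8. The comparisons share samples, so only the values are set side by side. Among genes whose D28 and D7 means differed by under 0.5, the largest rises from D8 were those of Kcna2, Rasl10b, Txnip, Nr1h4, Mmp13 and Fhl5. Txnip, an inhibitor of thioredoxin and of glucose uptake, averaged 12.70, 9.54, 9.69 and 12.34 at D7, D8, D10 and D28. Mmp13 averaged 15.51, 12.87, 13.00 and 15.46 in that order, and the potassium channel Kcna2 8.96, 5.93, 3.36 and 9.44. Among the largest falls under the same condition were those of Csn3, Slc4a11, Cd300lb, Hap1 and Prr32.

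A few genes were called in opposite directions against D8 and against D7. Ibsp had means of 15.50 (D7), 11.88 (D8), 9.15 (D10) and 14.01 (D28), so it was 2.13 higher at D28 than at D8 (adjusted p = 2.9e-05) and had a difference of −1.49 from D7 (adjusted p = 0.00087). The ERK phosphatase Dusp4 had differences of −1.99 from D8 and 1.29 from D7, the protease gene Mmp10 of −3.16 and 1.47, and the secretory pathway gene Sdf2l1 of −1.54 and 1.07. Hspa5 had differences of −1.24 from D8 and 0.53 from D7, the second of which did not pass, while Tnfsf11 was higher than at both, by 2.53 and 1.00.

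**Figure D5:**
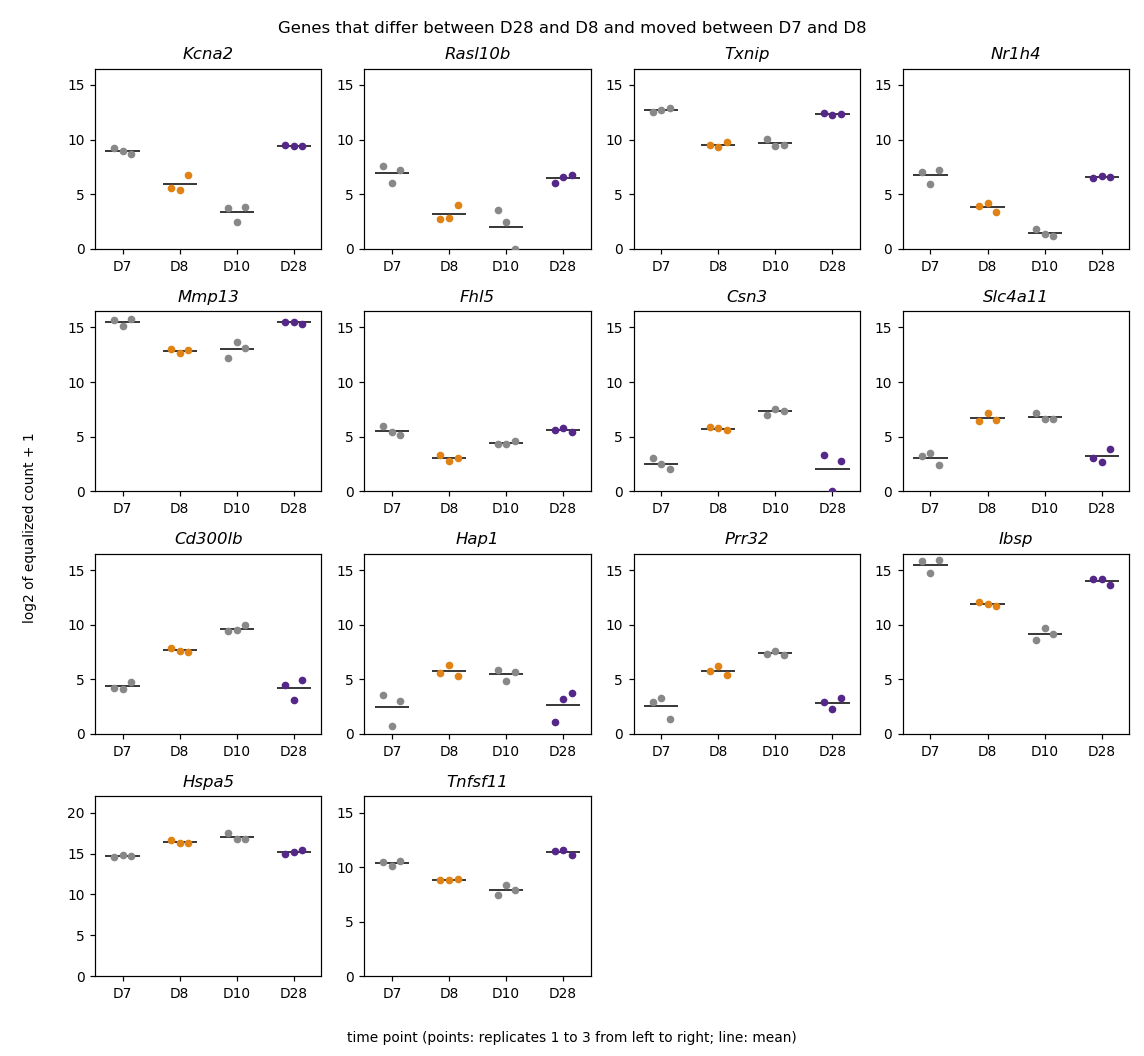
Log2 values at D7, D8 (orange), D10 and D28 (purple) of the named genes whose D28 and D7 means differed by under 0.5 and of Ibsp, Hspa5 and Tnfsf11, with the mean of each time point as a line. For Mmp13 the D28 libraries lie near those of D7 and above D8, and for Ibsp they lie between D7 and D8.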

How the data were processed

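RNA of 12 samples was sequenced by the authors from poly(A)-selected, strand-specific libraries, 3 per time point (D7, D8, D10 and D28). Per the submitters' processing notes, Trimmomatic 0.36, HISAT2, Cufflinks and HTSeq were used with GRCm38, while the supplementary methods name a human build; the symbols are those of the mouse. The authors deposited log2 values, the log2 of equalized read counts plus a pseudocount of 1. The equalization gave libraries nearly identical sets of values, so original totals are not kept, depth is known only through the lowest levels, and differences are on the log2(value + 1) scale, which understates changes of low genes.

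Means of 4 time points were fitted to all 12 libraries with limma 3.58.1 in R 4.3.3 (8 residual and 7.23 prior degrees of freedom, variance trend), with two-sided p-values and Benjamini-Hochberg adjustment over 17674 genes. In simulated data, tested for D28 against D8 with these genes, 183 of 200 changed genes were found (88 with a log2 change of 2 and 95 with 3), with 6 false calls. The changed genes had a mean over 3 and independent normal noise, so smaller changes and lower genes were not covered.

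The comparison, members and gene lists were chosen with earlier results of these data known. Named were the 12 largest rises and falls past the threshold in the upper 75% of means without overlap, excluding clone-type symbols; the 6 largest of each with D28 and D7 means within 0.5; the 6 largest D28 standard deviations at a mean of at least 6; and list members with the largest changes or known roles. Members of several lists count in each. A list's level is the log2 of the sum of its unlogged values. Lists were described by counts and medians, without set tests. Every list count is to be read beside the 10.0% of all genes tested that were higher and the 9.70% that were lower. Of the symbols, 27896 matched GENCODE M21, and promoter windows came from RefSeq (GRCm38.p6). Python 3.11.15, pandas 2.3.3, numpy 2.4.6 and matplotlib 3.10.9 made tables and figures. Alternatives covered low-value filters, pseudocount, scaling, thresholds, the libraries fitted, a replicate block and each library left out. Sequencing dates are not given in the sources used here, so batches could not be examined. Some genes that these rules name are not reported here.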

Additional observations from a re-analysis of the deposited data

How the results depend on the processing

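With a threshold of 2 on the log2 scale, 1555 genes passed, 877 higher and 678 lower, and with the adjusted p alone 7304 passed, 3084 higher and 4220 lower. The other settings gave 2857 to 3536 genes, of which 48.8% to 56.6% were higher, the latter after median-of-ratios scaling, which moved the median difference from −0.08 to 0.01. Leaving out each library in turn gave 3183 to 3323 genes. With the replicate number as a block, 3467 genes passed. Same-numbered libraries did not deviate together (r across genes of −0.033, −0.011 and 0.019). With 3 libraries per group this cannot show whether they share a cell preparation. No called difference of a named gene changed sign under these settings, and the block changed none of the 349 calls examined for single genes. Scaling by median of ratios changed 6 of these calls and raising values to the 3-read level of 2.87 changed 13, among them those of Cdh5 (−1.41), Heyl (−1.32) and Reln (−1.25). Leaving out 1 library changed 9 to 14 calls. Lists of low genes depend on the filter: with a mean of at least 3, 2 endothelial and 1 Notch gene were lower and 1 neuron and glia marker was higher. Low counts limit these lists, and rank values limit the most abundant matrix genes.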
